A study of Musa acuminata AAA Group with 12 samples.

Results

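The early response of Cavendish banana pulp to a chitosan coating was described from the 6 day 1 libraries of a series of 12, namely 3 libraries of chitosan-coated fruit (1A) and 3 of uncoated control fruit (1K). Both groups came from Musa acuminata AAA Group, Subgroup Cavendish. The banana fingers of all groups had been treated with ethylene, and the coated ones had in addition been dipped in 1.25% chitosan. The other 6 libraries are coated (7A) and control (7K) pulp at day 7 and are used here only to set values beside those of day 1. Gene expression was measured by paired-end RNA-seq of pulp as FPKM, a count of sequenced fragments scaled to transcript length and to the total mapped in a library. Of 35273 gene rows, 17197 were tested, those that reached an FPKM of 1 in 3 or more of the 6 libraries.

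Banana is a climacteric fruit, in which a burst of ethylene synthesis and respiration sets off starch breakdown, sweetening and softening of the pulp. Chitosan is made by removing acetyl groups from chitin, a polymer of fungal walls and insect shells. On fruit it dries to a thin film that slows the exchange of gas and water through the peel, and in many plants chitin and chitosan fragments are known as elicitors of defence responses. The film lies on the peel, while the RNA measured here is that of the pulp below it.

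The genes are named by the IDs of the DH Pahang version 2 annotation, and the coordinates are those of the deposited tables on that genome. The tables give no product names, and 0 of the IDs matched the RefSeq genes of another banana assembly, so no role is given for any gene. For the same reason the pulp origin of the libraries could not be checked against marker genes. Pulp is a bulk sample, in which a change in the share of a cell type and a change in the RNA per cell cannot be told apart. The reference is a doubled-haploid line and the fruit is a triploid cultivar, so transcripts of the other gene copies were read against a single copy.

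The 6 libraries were of similar depth, with 11076689 to 13583572 fragments implied by the confidence intervals of the FPKM values. They did not group by coating alone. By the GC content of the reads, which the study lists for each library, 1A_a, 1A_b and 1K_c form a lower-GC group and 1A_c, 1K_a and 1K_b a higher-GC group. Across the tested genes, the Pearson r of log2(FPKM + 1) was 0.988 to 0.991 for the 2 pairs that shared coating and GC group, 0.942 to 0.963 for the 4 pairs that shared only the GC group, and 0.918 to 0.929 for the 4 pairs that shared only the coating. Each library was therefore closer to the libraries of its own GC group under the other treatment than to those of its own treatment in the other GC group. On the first principal component, with 64.3% of the variance, 1A_a, 1A_b and 1K_c scored from 34.2 to 58.4 and the other libraries from -54.7 to -39.0. The second component held 27.5%, and there the coated libraries scored from 11.7 to 53.8 and the control libraries from -49.1 to -15.8. The GC group was kept as a block in the test for coating, and its own difference is given beside it.

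**Figure D1:**
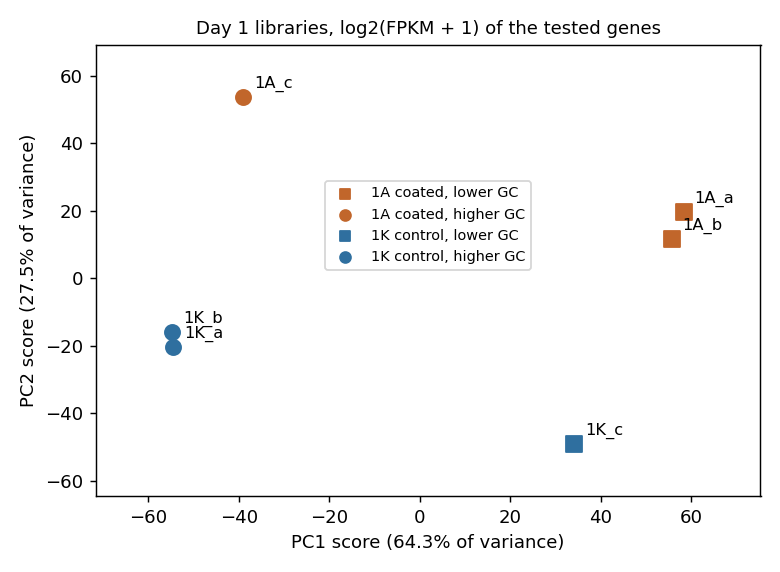
Scores of the 6 day 1 libraries on the first 2 principal components of log2(FPKM + 1) over 17197 genes, coated (1A) in orange and control (1K) in blue, with squares for the lower-GC and circles for the higher-GC libraries. The GC groups lie apart along PC1 (64.3% of the variance), and coated and control libraries lie apart along PC2 (27.5%).

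Coating went with a change in a large part of the measured genes when the GC group was held in the fit, which left 3 residual degrees of freedom. Without the GC group 3.74% of the genes were called. The largest changes were mostly rises. In the fit that holds the GC group, 6067 genes differed between coated and control pulp at an adjusted p under 0.05 (limma, Benjamini-Hochberg over all genes tested), which is 35.3% of those tested. Of these, 2909 genes (16.9%) were higher and 3158 genes (18.4%) were lower in coated pulp. Most of the differences were small, with a median log2 fold change of 0.60 among the genes that rose and -0.51 among those that fell. A log2 fold change of at least 1 in either direction was passed by 884 genes (5.14%), namely 597 rises (3.47%) and 287 falls (1.67%). At a log2 fold change of at least 2 the numbers were 125 rises and 19 falls, and at least 4 was reached by 25 rises and by a single fall, which rests on 1 or 2 fragments per control library and is described below among the genes listed at 0. The median over all tested genes was 0.00. Rises were 47.9% of the calls, and with FPKM scaled to a common sum they were 52.8%, so which direction was the more frequent depends on the scaling. The coated and control values did not overlap in 3966 genes (23.1%), of which 1987 (11.6%) were higher and 1979 (11.5%) lower in coated pulp. Both conditions, a call and no overlap, were met by 3188 genes (18.5%), with 1623 (9.44%) higher and 1565 (9.1%) lower.

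The number of small differences depended on the GC block, and most of the large ones were called without it too. Without the block, 644 genes were called (3.74% of those tested), 397 higher and 247 lower, and all 644 were among the 6067. Of the genes with a log2 fold change of at least 2, 116 of the 125 rises and 18 of the 19 falls were among them. How many genes pass 2 on this scale rests on the pseudocount, with 236 rises and 54 falls at a pseudocount of 0.1. 1A_c and 1K_c are each the single library of their treatment in their GC group. Without 1A_c, 3153 genes were called, with 119 rises and 22 falls of at least 2 on the log2 scale, and without 1K_c, 3523 genes, with 152 and 23.

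The GC group itself went with a larger median difference than the coating. Its term in the same fit called 11262 genes, or 65.5%, with 3789 genes (22%) higher and 7473 (43.5%) lower in the lower-GC libraries, and the median absolute log2 difference was 0.48 for the GC group and 0.24 for the coating. The split of the GC term by direction turned to 6141 higher and 4953 lower under median-of-ratios scaling. For comparison, the median absolute log2 difference was 0.12 between 1A_a and 1A_b and 0.13 between 1K_a and 1K_b, the pairs that share coating and GC group. Of the genes called for coating, 67.5% were called for the GC group too. The GC groups of day 1 differed in more than read GC. The paper lists a lower share of mapped reads for each lower-GC library than for each higher-GC one. The FPKM sum was 941728 to 969329 in the lower-GC and 780391 to 804714 in the higher-GC libraries. The control libraries of day 1 and both groups of day 7 have c in the lower-GC group and a and b in the higher-GC group, and the coated libraries of day 1 have the reverse. What the GC groups stand for in the handling of the samples is not given in the sources used here, whether libraries were exchanged was not tested, and their part in the smaller coating differences was not tested beyond the block.

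Within each GC group the coating difference could be read from 3 libraries, 1A_a and 1A_b against 1K_c in the lower group and 1A_c against 1K_a and 1K_b in the higher. The differences from these separate libraries had a Pearson r of 0.835 across the 17197 genes, which are not independent replicates. They had the same sign in 77.8% of the tested genes and in all 6067 of the called genes, a property that the fit with the block favours. The difference between the GC groups in the coating effect was itself tested as an interaction term in limma, which called 0 genes at an adjusted p under 0.05, and 785 genes (4.56%) at an unadjusted p under 0.05. No other tool was run for this term, and only 2 residual degrees of freedom were left for it.

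**Figure D2:**
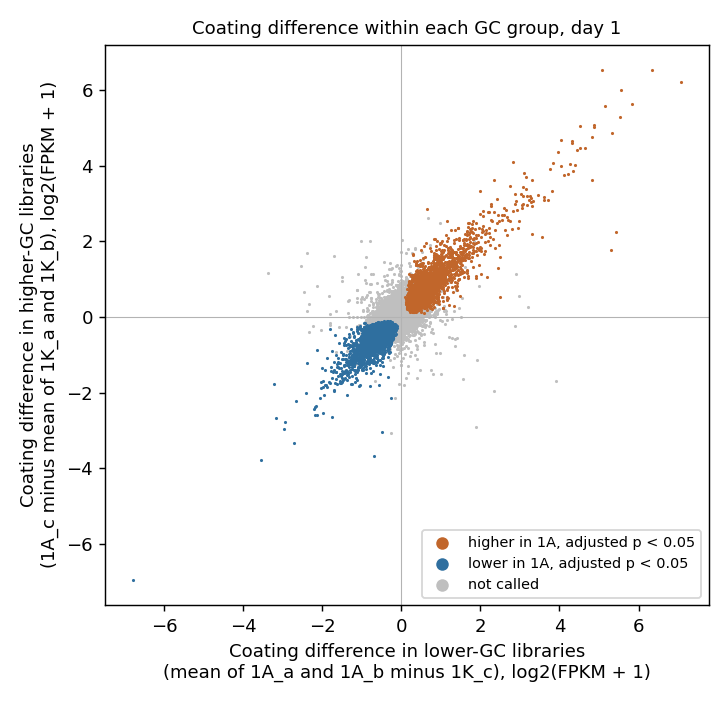
Coating difference in log2(FPKM + 1) for each of 17197 genes, in the lower-GC libraries (x axis) and in the higher-GC libraries (y axis), with genes higher in 1A in orange, lower in 1A in blue and genes not called in grey. Most of the large rises and falls lie near the diagonal (r = 0.835 over all genes). More rises than falls lie far from 0, and the lowest blue point is Ma09_g21730, which rests on 1 or 2 fragments in each control library.

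Over all tested genes the coated and control values did not overlap in 23.1%, and choosing genes by a large called change favours a lack of overlap. Among the 125 genes with a log2 rise of at least 2, the values did not overlap in 124, and in 118 each coated library held at least 10 fragments. Their mean FPKM in coated pulp ran from 4.44 to 4959 with a median of 40.2, against a median of 3.37 in control pulp, where 25 of them averaged under an FPKM of 1. In coated pulp 36 of them averaged at least 100, against 5 in control pulp. They lay on all 11 chromosomes, with 5 to 16 on each, where 1188 to 1943 genes were tested. Their loci were short, with a median of 1411 bp against 4504 bp for all tested genes. The 19 genes with a fall of the same size had a median FPKM of 4.59 in coated and 45.3 in control pulp, and a median locus of 1340 bp.

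Genes named by rule for a rise or a fall had, as a condition, no overlap of the groups at day 1. The largest rise was that of Ma04_g29690 (chromosome 4, 30545221 to 30545509). It had an FPKM of 145 in 1A_a, 123 in 1A_b and 103 in 1A_c, against 0 in 1K_a, 1.00 in 1K_b and 0 in 1K_c. The control values stand for 2 fragments in all, those of 1K_b, and the coated ones for 285, 255 and 170 fragments. The gene was thus near the limit of detection in the control and well measured in every coated library (log2 fold change 6.64 ± 0.29 SE, adjusted p = 1.01e-05), and the size of the change depends on the pseudocount.

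Ma09_g27320 (chromosome 9, 38335392 to 38336021) had an FPKM of 720.0 in 1A_a, 617 in 1A_b and 489 in 1A_c, against 4.04 in 1K_a, 4.71 in 1K_b and 7.22 in 1K_c. The means were 609 ± 116 in 1A and 5.32 ± 1.68 in 1K (SD, n = 3 each), so the coated level was 114 times the control level. Its log2 fold change was 6.43 ± 0.09 SE (adjusted p = 6.42e-08), and the difference was alike in the lower-GC (6.34) and the higher-GC libraries (6.51).

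Ma06_g06180 (chromosome 6, 4533300 to 4534127) had an FPKM of 213 in 1A_a, 212 in 1A_b and 310 in 1A_c, against 2.03 in 1K_a, 2.78 in 1K_b and 5.30 in 1K_c. All coated values lay far above all control values, and the mean in coated pulp was 72.7 times that in control pulp (log2 fold change 5.803 ± 0.28 SE, adjusted p = 1.55e-05). The difference was 5.08 in the lower-GC and 6.52 in the higher-GC libraries, which are also the values without 1A_c and without 1K_c. With Ma09_g27320 it made up the largest rises among genes with a mean FPKM of at least 100 over the 6 libraries.

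Ma03_g09020 (chromosome 3, 6626558 to 6627654) was listed at a high FPKM in the coated pulp. Its FPKM was 5940 in 1A_a, 5947 in 1A_b and 2990 in 1A_c, against 104 in 1K_a, 117 in 1K_b and 209 in 1K_c, and the lowest coated value was above the highest control value. The log2 fold change was 4.79 ± 0.06 SE (adjusted p = 6.42e-08), the smallest p-value among the rises that could be named, together with that of Ma09_g27320. Its confidence intervals do not follow its FPKM as those of other genes do. The FPKM per implied fragment differed by 21.0 times between its libraries, where it differed by over 1.5 times in 0.769% of the genes with at least 10 fragments in each library, and voom on the implied fragments gave a log2 fold change of 1.32 (adjusted p = 5.38e-07). The direction is the same on both scales, and neither the size of the change nor the level of the gene is settled by the tables.

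The 2 largest falls by the naming rule were those of Ma03_g17050 and Ma07_g08380. Ma03_g17050 (chromosome 3, 22336331 to 22337126) had an FPKM of 4.49 in 1A_a, 2.68 in 1A_b and 1.56 in 1A_c, against 39.5 in 1K_a, 29.7 in 1K_b and 51.8 in 1K_c. The groups were far apart, at a log2 fold change of -3.67 ± 0.18 SE (adjusted p = 1.69e-05). For Ma07_g08380 (chromosome 7, 6233087 to 6234890) the FPKM of 1A_a, 1A_b and 1A_c was 3.32, 2.33 and 2.14, against 32.7, 29.1 and 23.9 in 1K_a, 1K_b and 1K_c. Its log2 fold change was -3.03 ± 0.17 SE (adjusted p = 2.65e-05), and no coated library came near the control range.

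Among abundant genes, the largest falls were those of Ma05_g14110 and Ma11_g21280. Ma05_g14110 (chromosome 5, 10265404 to 10267568) had an FPKM of 33.5 in 1A_a, 36.1 in 1A_b and 65.8 in 1A_c, against 467 in 1K_a, 452 in 1K_b and 272 in 1K_c. Within both treatments the gene was lower in the lower-GC libraries, by 0.83 on the log2 scale, and the coating difference was -2.93 in the lower-GC and -2.78 in the higher-GC libraries. The fitted log2 fold change was -2.86 ± 0.06 SE (adjusted p = 6.77e-07), the smallest p-value among the falls that could be named. For Ma11_g21280 (chromosome 11, 25491448 to 25492548) the FPKM of 1A_a, 1A_b and 1A_c was 648, 705 and 358, against 2276, 1915 and 2670 in 1K_a, 1K_b and 1K_c. It remained one of the abundant transcripts in coated pulp at a log2 fold change of -2.26 ± 0.13 SE (adjusted p = 2.91e-05).

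Ma04_g38580 (chromosome 4, 36047515 to 36048760) was the second of the falls by p-value. Its FPKM was 13.8 in 1A_a, 14.4 in 1A_b and 10.8 in 1A_c, against 59.8 in 1K_a, 58.5 in 1K_b and 65.8 in 1K_c. The values within each treatment differed little between libraries beside the gap between the treatments (log2 fold change -2.25 ± 0.08 SE, adjusted p = 3.94e-06).

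**Figure D3:**
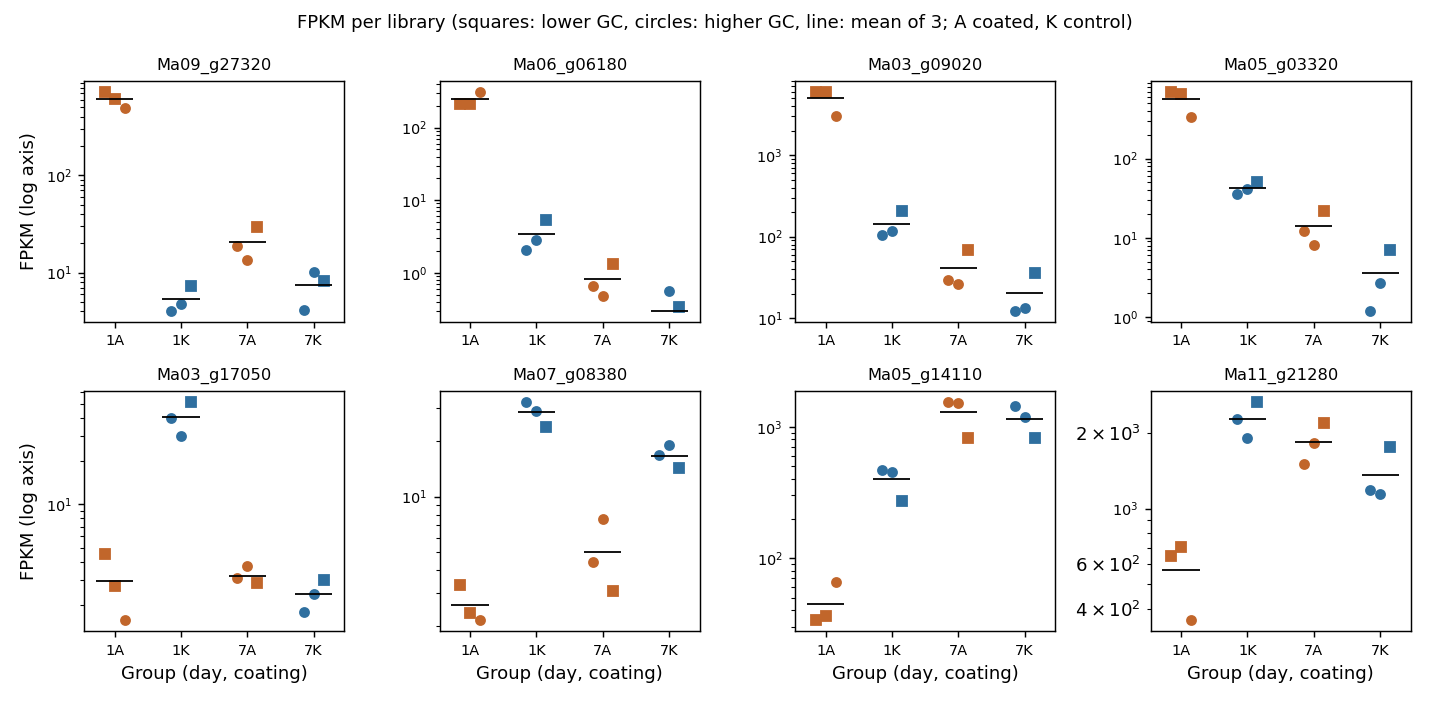
FPKM in each of the 12 libraries on a log axis for 4 genes that rose and 4 that fell at day 1, in coated (A, orange) and control (K, blue) pulp of day 1 and day 7, with squares for the lower-GC libraries, circles for the higher-GC libraries and a line at the mean of 3. A value of 0 (Ma06_g06180 in 7K_a) is not drawn. At day 1 the coated and control libraries do not overlap in any of the 8 genes, which was a condition for naming them. For Ma09_g27320 the values are 489 to 720.0 against 4.04 to 7.22.

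The 3 most abundant genes of the pulp were not called for coating. Of the 178 genes with a mean FPKM of at least 500, 61.8% were called, beside 35.3% of all tested. Ma03_g16510, Ma02_g16130 and Ma10_g00760 had the highest mean FPKM over the 6 libraries. Ma03_g16510 averaged 70109 ± 27686 in 1A and 56228 ± 30275 in 1K (SD, n = 3 each), with a log2 fold change of -0.04 ± 0.13 SE (adjusted p = 0.826). Its spread followed the GC group, since it was at 81772 in 1A_a, 90054 in 1A_b and 90534 in 1K_c, and at 38500 in 1A_c, 33253 in 1K_a and 44896 in 1K_b. The adjusted p was 0.785 for Ma02_g16130 and 0.531 for Ma10_g00760. Their log2 fold changes were 0.03 ± 0.07 and -0.07 ± 0.08 SE. A p above the threshold does not show that the levels were equal.

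The genes called nevertheless made up a sizeable part of the transcript pool. As a description of genes chosen by this contrast, the 2909 higher genes held 23.2% of the tested FPKM in 1A_a, 21.8% in 1A_b and 25.1% in 1A_c, against 14.5% in 1K_a, 14.6% in 1K_b and 13.0% in 1K_c. The 3158 lower genes held 27.8%, 28.4% and 25.7% in the coated libraries a, b and c, against 38.6%, 37.6% and 39.3% in those of the control. Calls were more frequent among genes of higher level, where depth is larger. They came to 20.9% of the 6825 genes with a mean FPKM under 5 and to 65.6% of the 835 genes from 100 to 500. Between an FPKM of 50 and 100, 219 genes were higher and 394 lower, and between 100 and 500, 226 were higher and 322 lower. Rises were 32.7% to 44.7% of the calls in these classes with quantile normalization, median-of-ratios scaling or a common FPKM sum. Falls thus outnumbered rises in both classes under all of them. Over all genes rises were 42.9% to 52.8% of the calls under these scalings. From an FPKM of 500 up, rises were 45.5% of the calls, and 50.5% with a common FPKM sum. Under an FPKM of 5, 60.4% of the calls were rises, and this turned to 47.9% under quantile normalization.

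Short genes were called more often than long ones, with 42.0% of the loci of 1000 to 2500 bp and 22.3% of those of at least 10000 bp. By chromosome, the share of genes called lay between 32.9% on chromosome 10 and 36.9% on chromosome 5, around the 35.3% of all tested genes, and it was 28.3% of the 180 genes on unplaced sequence. Called genes were 33.3% of the mitochondrial genes, near the 35.3% of all tested. Of the 21 tested genes on mitochondrial sequences, 5 were higher (23.8%, beside 16.9% of all) and 2 lower (9.52%, beside 18.4%) in coated pulp. Their summed FPKM was 488 in 1A_a, 603 in 1A_b and 366 in 1A_c, against 363 in 1K_a, 290 in 1K_b and 381 in 1K_c, so the groups overlapped (two-sided exact permutation test without the GC block, p = 0.2, where 3 libraries against 3 cannot give a p below 0.1). Within each GC group the coated values lay above the control values, by a mean of 164 in the lower-GC and 39.5 in the higher-GC libraries.

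Few genes were listed at 0 throughout one treatment and detected throughout the other. Listed at 0 in all 3 control libraries and at an FPKM of at least 1 in all 3 coated ones were 5 genes, and the reverse held for 2. Only Ma05_g13180 (chromosome 5, 9543305 to 9544845) rested on at least 10 fragments in each library of the higher group, with an FPKM of 3.17 in 1A_a, 1.95 in 1A_b and 2.62 in 1A_c from 68.7, 47.5 and 51.9 fragments (adjusted p = 0.0002). At day 7 it was detected in every library, at 0.17 to 0.44 in 7A and 0.10 to 0.27 in 7K. The others were picked out after their values were seen. Ma03_g20620 and Ma11_g12640 had 5 to 11 fragments in the coated libraries (adjusted p = 7.96e-06 and 0.0007, and 0.001 and 0.0003 with voom on the fragments). Ma08_g27170 and Ma09_g06190 had 1 to 4 fragments, and Ma09_g21730 and Ma11_g20090, listed at 0 in 1A, had 1 or 2 in each control library. For these the adjusted p was at most 0.0011 on the FPKM scale and 0.055 to 0.18 with voom, so their calls rest on the scale. Ma09_g21730, a locus of 210 bp, is the gene with the single log2 fall beyond -4 named above.

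Some of the changed genes stood next to each other on the chromosome. The next tested neighbour of a gene that rose had itself risen in 21.0% of cases, beside 16.9% of all tested genes, and the next neighbour of a gene that fell had fallen in 19.7%, beside 18.4%. The longest runs held 7 genes in either direction. The run of 7 rises lay on chromosome 9 from 40687903 to 40712500 and spanned Ma09_g30650 to Ma09_g30750, with log2 fold changes of 0.37 to 4.50. Its steepest members sat in the middle. Ma09_g30690 had an FPKM of 318 in 1A_a, 324 in 1A_b and 162 in 1A_c, against 4.51 in 1K_a, 8.90 in 1K_b and 12.9 in 1K_c (log2 fold change of 4.50, adjusted p = 1.02e-05). Ma09_g30680, its neighbour, had 123, 121 and 49.4 in 1A_a, 1A_b and 1A_c, against 0.84, 4.49 and 6.47 in 1K_a, 1K_b and 1K_c. Ma09_g30670 rose at a much higher level, with 1390 in 1A_a, 1355 in 1A_b and 937 in 1A_c, against 122 in 1K_a, 185 in 1K_b and 213 in 1K_c (log2 fold change of 2.66, adjusted p = 2.20e-05). Among all 6067 called genes the groups did not overlap in 3188. In this run, made up of called genes by its definition, the coated and control values did not overlap in 5 of the 7 genes. Genes between them that did not pass the FPKM filter are not counted, and whether reads were shared between neighbours of like sequence cannot be seen from the tables.

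On chromosome 3, 6 neighbouring genes from 10287786 to 10473964 (Ma03_g13270 to Ma03_g13340) rose by 0.58 to 1.79 on the log2 scale. They were chosen by a call in the same libraries, and the groups did not overlap in any of them. Ma03_g13270 led them with an FPKM of 73.8 in 1A_a, 63.3 in 1A_b and 63.7 in 1A_c, against 14.4 in 1K_a, 15.5 in 1K_b and 22.5 in 1K_c. The longest runs of falls were shallow. They held 7 genes on chromosome 11 (26956241 to 27028030), at log2 fold changes of -0.91 to -0.22, and 6 genes on chromosome 1 (10907960 to 10970729), at -1.25 to -0.34. The groups did not overlap in 3 and 2 of their genes, beside 3188 of all 6067 called genes.

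**Figure D4:**
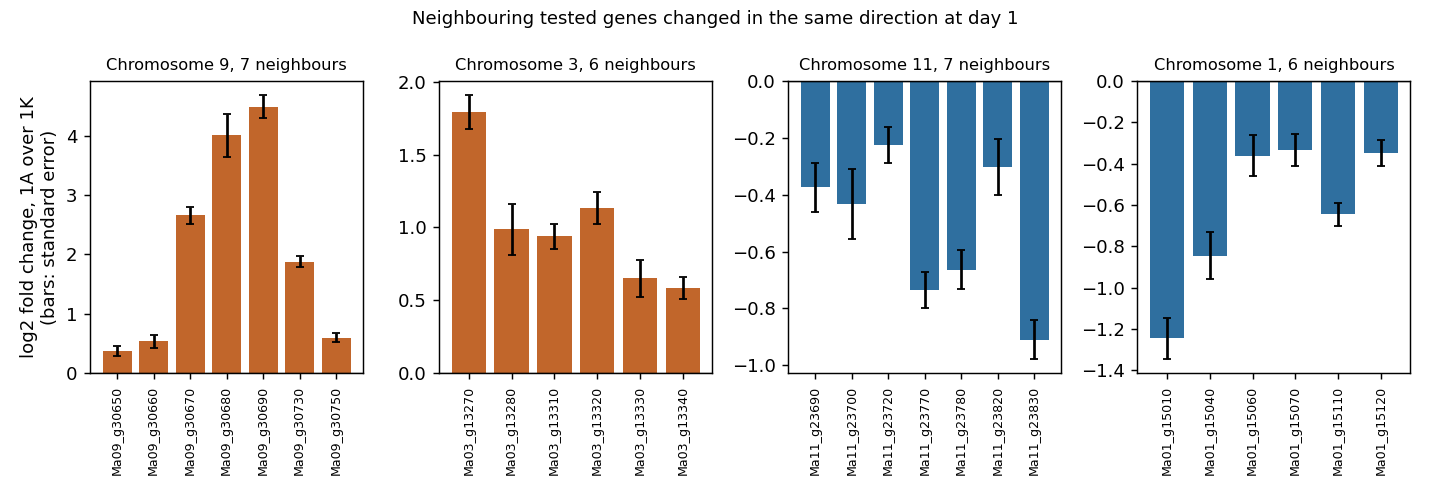
Log2 fold change of coated over control pulp at day 1, with its standard error, for the genes of the 2 longest runs of rises (orange, chromosomes 9 and 3) and of falls (blue, chromosomes 11 and 1), in chromosome order, each panel on its own scale. The run on chromosome 9 reaches 4.50 at Ma09_g30690, and no member of the runs of falls goes below -1.25.

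The day 7 libraries were not used for the day 1 calls and show how much of the early difference was still present. Coating at day 7, tested in the same way over the same genes, called 165 genes (0.959%), 82 higher (0.477%) and 83 lower (0.483%). The count was 3 without 7A_a, 26 without 7A_b, 5 without 7A_c, 491 without 7K_a, 104 without 7K_b and 5 without 7K_c. Without the GC block limma called 0 genes, with 718 at an unadjusted p under 0.05, against 4000 with the block. At day 7 the coated pulp was lower in most genes, with a median log2 fold change of -0.13 that became 0.00 under median-of-ratios scaling, and changes are therefore set against that median. Of the genes with a log2 rise of at least 2 at day 1, 111 of 125 (88.8%) lay above the median of all tested genes at day 7, and 92 (73.6%) lay above 0, where 27.6% of all tested genes did. Of those with a rise of at least 3, 53 of 55 (96.4%) lay above the median. Under median-of-ratios scaling these shares above the median were 80.8% and 89.1%. The 125 genes had a median FPKM of 1.38 to 2.06 in the 7K libraries, against 7.84 to 10.1 for all tested genes. At such low levels log2(FPKM + 1) draws differences towards 0, which lies above the median of -0.13. Genes of like level were not compared. The differences were smaller than at day 1, with a median day 7 log2 fold change of 0.34 for the 125 genes, of which 17 were called higher and 0 lower.

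An interaction of coating and day, fitted in limma over all 12 libraries, called 3916 genes (22.8%), 2729 (15.9%) more positive and 1187 (6.9%) more negative at day 1. This split reversed under median-of-ratios scaling, with 1881 more positive and 2447 more negative of 4328 genes, where the median difference over all tested genes moved to -0.04 beside 0.15 on the deposited scale. Taken over all genes called at day 1, small differences included, day 7 showed little in the same direction. Of all 2909 genes that rose at day 1, 53.2% lay above the day 7 median, and of the 3158 that fell, 47.8% did, both near an even split. The 19 steep falls were split, with 9 above the median. The median FPKM of the 125 steep rises was 47.7 in 1A_a, 34.7 in 1A_b and 35.1 in 1A_c, against 2.87 in 1K_a, 3.40 in 1K_b and 3.82 in 1K_c. At day 7 it was 3.37 in 7A_a, 2.66 in 7A_b and 3.93 in 7A_c, against 1.38 in 7K_a, 2.06 in 7K_b and 1.99 in 7K_c. The median of these genes in coated pulp of day 7 was thus near that of control pulp at day 1. It was still above the median of the control of the same day. For single genes the 7A mean lay on either side of the 1K mean. It was 20.4 against 5.32 for Ma09_g27320, and 0.82 against 3.37 for Ma06_g06180.

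**Figure D5:**
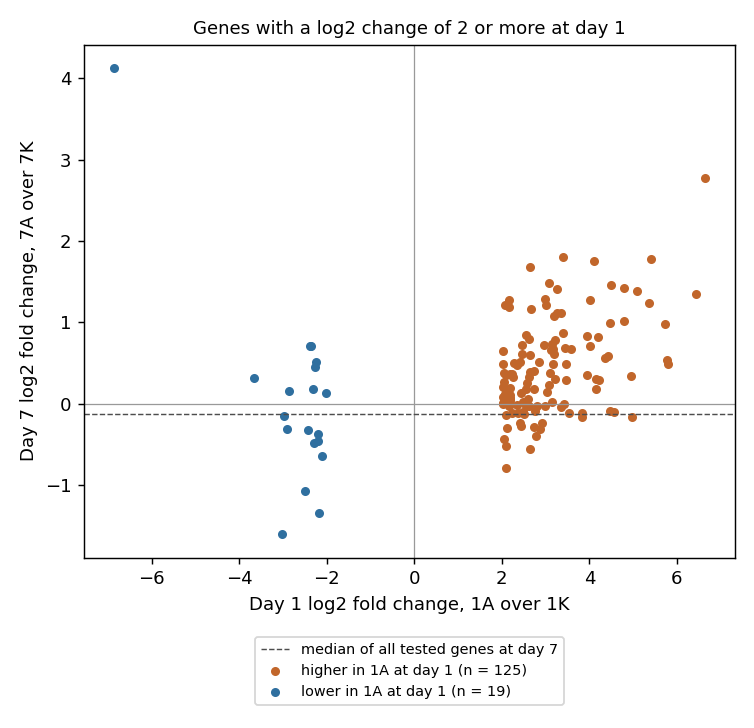
Log2 fold change of coated over control pulp at day 1 (x axis) and at day 7 (y axis) for the 125 genes that rose (orange) and the 19 that fell (blue) by at least 2 on the log2 scale at day 1, with a dashed line at the median of all tested genes at day 7 (-0.13). Of the rises, 92 lie above 0 at day 7, mostly at much smaller values than at day 1, and the blue point at the upper left is Ma09_g21730, which rests on 1 or 2 fragments in each 1K library.

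Ma09_g27320 had an FPKM of 20.4 ± 8.05 in 7A and 7.44 ± 3.09 in 7K (SD, n = 3 each), and Ma06_g06180 was at 0.47 to 1.33 in 7A and 0 to 0.55 in 7K. Ma03_g09020 averaged 41.5 in 7A and 20.3 in 7K. Ma05_g14110, the steepest fall among abundant genes at day 1, stood at 1551, 1503 and 815 in 7A_a, 7A_b and 7A_c, against 1431, 1187 and 815 in 7K_a, 7K_b and 7K_c, so its groups overlapped at day 7 at a level above that of either group of day 1.

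Of all 17197 tested genes, 165 (0.959%) were called at day 7, 94 in the direction of their day 1 difference and 71 in the opposite direction. Of the 6067 genes called at day 1, 64 were called at day 7 in the same direction, 40 higher and 24 lower in coated pulp. The opposite direction held for 29. Ma03_g09020 was one of the 40 (day 7 log2 fold change of 1.02, adjusted p = 0.014). Ma05_g03320 (chromosome 5, 2358523 to 2359736) had an FPKM of 692 in 1A_a, 652 in 1A_b and 334 in 1A_c, against 35.6 in 1K_a, 41.2 in 1K_b and 50.5 in 1K_c (log2 fold change 3.40 ± 0.13 SE, adjusted p = 6.46e-06). At day 7 it was at 12.2, 8.21 and 21.8 in 7A_a, 7A_b and 7A_c, against 1.20, 2.68 and 6.97 in 7K_a, 7K_b and 7K_c (log2 fold change of 1.81, adjusted p = 0.029). Coated pulp was thus higher on each day, at very different levels. Ma04_g29690 was likewise higher in 7A, at 6.84, 5.71 and 25.4, against 0.81, 0.57 and 0.51 in 7K (log2 fold change of 2.78, adjusted p = 0.03).

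In the other direction, Ma07_g08380 was at 4.44, 7.60 and 3.07 in 7A, against 16.8, 19.0 and 14.3 in 7K (log2 fold change of -1.61, adjusted p = 0.027). Ma01_g10090 (chromosome 1, 7227358 to 7227984) had an FPKM of 2.27 in 1A_a, 1.84 in 1A_b and 1.99 in 1A_c, against 10.8 in 1K_a, 7.86 in 1K_b and 27.2 in 1K_c (log2 fold change -2.49 ± 0.30 SE, adjusted p = 0.0007). The difference was -3.21 without 1A_c and -1.77 without 1K_c, the same as within the lower-GC and the higher-GC libraries. It was far more abundant at day 7 and again lower in coated pulp, with 92.1, 98.7 and 204 in 7A_a, 7A_b and 7A_c, against 181, 220.4 and 441 in 7K_a, 7K_b and 7K_c (log2 fold change of -1.08, adjusted p = 0.014). Within each GC group of day 7 the coated values lay below the control values, while 7A_c lay above 7K_a.

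Other genes were called in opposite directions on the 2 days, and none of those named changed by more than 1.22 on the log2 scale at day 1. Ma08_g20660 (chromosome 8, 34774859 to 34776644) had an FPKM of 80.8 in 1A_a, 71.2 in 1A_b and 73.7 in 1A_c, against 37.8 in 1K_a, 47.9 in 1K_b and 39.4 in 1K_c (log2 fold change 0.85 ± 0.11 SE, adjusted p = 0.0009). At day 7 it was lower in coated pulp, at 6.20 to 7.35 in 7A and 11.8 to 14.5 in 7K (adjusted p = 0.041). Ma04_g10290 (chromosome 4, 7342866 to 7348543) was at 1.59 to 2.04 in 1A and 5.10 to 5.88 in 1K (adjusted p = 0.0002), and at 8.91 to 14.5 in 7A and 4.16 to 6.43 in 7K (adjusted p = 0.021).

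Ma11_g02330 (chromosome 11, 1680077 to 1681974) behaved in the same way, with 0.91 to 1.97 in 1A and 4.395 to 6.07 in 1K (adjusted p = 0.002), and 5.74 to 10.05 in 7A and 1.64 to 3.01 in 7K (adjusted p = 0.03). Ma11_g16650 (chromosome 11, 22108487 to 22109321) was at 74.1 to 150.4 in 1A and 16.2 to 70.5 in 1K (adjusted p = 0.043), and at 14.95 to 29.1 in 7A and 28.1 to 46.0 in 7K, where the groups overlapped (adjusted p = 0.031). Its control values were spread widely, and its day 1 call was lost when 1A_a, 1A_c, 1K_a or 1K_b was left out, with an adjusted p of 0.095, 0.453, 0.053 and 0.061. The log2 fold change of 1.22 became 1.10, 0.58, 0.94 and 1.32 without these libraries, and it was 1.87 without 1K_c, where the call was kept.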

How the data were processed

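Pulp RNA was sequenced from both ends on an Illumina instrument. The authors quality-checked the reads (FastQC), aligned them by TopHat against the genome of the doubled-haploid line DH Pahang, version 2, and estimated FPKM per gene with Cufflinks. The deposited FPKM and their 95% intervals were used unchanged. The library kit does not mark strand, so overlapping genes on opposite strands cannot be told apart, and how multi-mapped reads were handled is not given in the sources used here.

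The 3 replicates a, b and c of a group, named replicates 1, 2 and 3 in the labels, are biological replicates by the study's methods. A row without an ID, 2 rows of a repeated ID and 1 gene whose estimate failed in 1A_b were left out. Values were fitted as log2(FPKM + 1) with limma 3.58.1 (R 4.3.3, intensity trend) on the 6 day 1 libraries, with coating and the GC group of the reads as terms, so fold changes of low genes are understated. An adjusted p-value under 0.05 was a call. Day 7 was fitted likewise, and the difference between days in all 12 libraries. Implied fragments were computed as (2 FPKM / (upper bound - FPKM)) squared, and 82.7% to 84.3% of those checked in a library were whole to a tolerance of 0.02. They cover counting error only. Single values were compared by exact permutation in Python 3.11.15 (numpy 2.4.6, pandas 2.3.3, matplotlib 3.10.9).

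Genes named singly had an adjusted p under 0.05, no overlap of the groups, one direction in both GC groups and at least 10 fragments in each library of the higher group. From these were taken, in each direction, the 2 with the largest change, overall and at a mean FPKM of at least 100, the 2 with the smallest p, the 2 called in the same and the 2 in the opposite direction at day 7 and those listed at 0 in the other group. The 2 longest runs of called neighbours in each direction and the 3 most abundant genes were named without these conditions, and so were the other genes listed at 0, after their values were seen. The genes, rules and tests were chosen with earlier results of these data known. The planned gene lists by product name were not used, because no ID had a name. Alternatives were other scalings, pseudocount, filters, thresholds, no trend, voom, no GC block, all 12 libraries, a replicate block and each library left out.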

Additional observations from a re-analysis of the deposited data

Results flagged for a closer look

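The coating difference at day 1 was set against that at day 7 as an interaction term in limma over all 12 libraries, with the GC group kept, and 3916 genes (22.8% of those tested) were called. The count was 502 without the GC block, 3517 with a replicate block and the GC group, and 3457 without 7A_c, the library with the fewest implied fragments (6135597). These alternatives were chosen after seeing the data. Under median-of-ratios scaling, likewise chosen after seeing the data, it was 4328. The paper lists more reads for 7A_c than for most other libraries, and the reason for its few implied fragments was not tested.

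The same term picked out the 16 genes named singly for a day 1 call. They were chosen by their day 1 values, which are part of this contrast, so the differences are given as a description. The log2 difference of day 1 minus day 7 was 5.29 for Ma06_g06180, 5.07 for Ma09_g27320, 3.71 for Ma04_g29690, 3.70 for Ma03_g09020, 1.69 for Ma05_g13180 and 1.50 for Ma05_g03320. Among the falls it was -3.89 for Ma03_g17050, -3.01 for Ma05_g14110, -2.84 for Ma04_g38580, -2.69 for Ma11_g21280, -1.48 for Ma01_g10090 and -1.34 for Ma07_g08380. For the genes called in opposite directions it was 2.01 for Ma11_g16650, 1.69 for Ma08_g20660, -2.14 for Ma04_g10290 and -2.60 for Ma11_g02330, which were chosen for their day 7 direction too.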

How the results depend on the processing

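The 6067 genes of day 1 (2909 higher, 3158 lower) became 644 (397 and 247) without the GC block, 1164 (707 and 457) with all 12 libraries and no GC block, and 0 in limma with a replicate block and no GC block (chosen after seeing the data, with 1305 at an unadjusted p under 0.05), with 3587 (1704 and 1883) at an adjusted p under 0.01 and 884 (597 and 287) with a log2 fold change of at least 1. With the GC group kept, the replicate block gave 5632 genes in the 6 and 4799 in all 12 libraries. The replicate letters were not taken to pair the samples. At day 1 libraries of the same letter lie in opposite GC groups, and their deviations correlated at -0.906 to -0.683. After the GC term the residuals of a, b and c correlated at 0.149, 0.053 and 1, the last fixed by the fit, which has 1 coated library in one GC group and 1 control library in the other. Leaving out a library gave 3153 to 5636 genes, 1249 to 2898 higher and 1522 to 2928 lower. The 125 rises and 19 falls of at least 2 on the log2 scale became 236 and 54 with a pseudocount of 0.1 and 229 and 51 with voom, and 117 to 152 and 17 to 23 when a library was left out, all chosen after seeing the data. Day 7 gave 165 genes, 90 with a pseudocount of 0.1, 0 without the GC block (718 at an unadjusted p under 0.05 in limma) and 3 to 491 with a library left out. The interaction of coating and day gave 3916 genes, and 502 without the GC block. Genes listed at 0 in 1K were 5, or 84 at any FPKM above 0 and 1 with at least 10 fragments, and in 1A 2, 73 and 0. The cause of these changes was not tested. Of 302 day 1 values of named genes under the alternatives, 294 kept direction and call, and the 8 that lost the call belong to Ma11_g16650. These genes were chosen by their day 1 differences in the same libraries, which favours such stability. The day 7 calls of single genes were not followed through the alternatives. Low counts limit genes under an FPKM of 1.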
